A study of Homo sapiens with 24 samples.

Results

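The genes described here encode RNA polymerase II and the factors that carry it through elongation. The 49 genes are 12 polymerase subunits, the CTD kinases and their cyclins, the pausing factors DSIF and NELF, the PAF1 complex, histone chaperones, the super elongation complex, the 7SK proteins, and 4 further factors. All 49 were found among the 58138 gene names of the count tables. They were listed by function, with no rule on their values. The study measured steady-state RNA after siRNA against the RPRD proteins or in cells carrying RPRD1B_FL. RPRD1A, RPRD1B and RPRD2 bind the phosphorylated C-terminal domain of the largest polymerase subunit.

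The 24 samples formed 12 groups of 2. HEK293T cells, a human embryonic kidney line that carries the SV40 large T antigen, were transfected with siRNA for 48 h in 8 groups. CTRL received a control siRNA. RPRD2_KD, RPRD1B_KD and RPRD1A_KD received siRNA against the gene in their name. RPRD1A_RPRD1A_KD, RPRD1B_RPRD2_KD, RPRD1A_RPRD2_KD and RPRD1A_RPRD1B_RPRD2_KD received combinations. Flp-In T-REx 293 cells, a 293 derivative built for tetracycline-regulated expression from an integrated site, gave 4 groups. FLP is the line without RPRD1B_FL and RPRD1B_FL the line with it, both untreated. FLP_TET and RPRD1B_FL_TET are the same lines after 48 h of tetracycline. The labels do not say what FL stands for, whether the lines are single clones, or whether same-group samples came from separate cultures, so p-values measure only the spread between these samples. The siRNA was given to HEK293T cells only, and RPRD1B_FL was carried by Flp-In cells only.

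Libraries held 1817246 to 3135625 reads in genes for HEK293T and 2342969 to 3531106 for Flp-In cells, so that 3 reads correspond to 0.863 to 1.67 CPM, the unit used below for reads scaled to a common library size. The 49 genes together took 0.674% to 0.797% of the reads in genes. The targeted mRNAs were low where the labels say so, and low in further groups. RPRD1A stood at 153 and 162 CPM in CTRL and at 14.3 to 26.9 CPM in the 8 libraries with RPRD1A siRNA, and at 68.0 to 100.3 CPM in the 6 libraries with only RPRD1B or RPRD2 siRNA. RPRD1B stood at 27.9 and 27.6 CPM in CTRL and 10.2 and 6.08 CPM in RPRD1B_KD, and also at 13.8 and 7.90 CPM in RPRD1A_RPRD1A_KD, whose label names RPRD1A in both positions. RPRD2 was 96.5 and 99.7 CPM in CTRL and 30.3 to 68.2 CPM in the 8 libraries with RPRD2 siRNA. RPRD1B was 30.9 and 30.5 CPM in FLP_TET against 89.5 and 67.5 CPM in RPRD1B_FL_TET. Without tetracycline RPRD1B was 36.25 and 35.4 CPM in FLP and 45.0 and 45.5 CPM in RPRD1B_FL. RPRD1A was 58.1 and 54.35 CPM in FLP_TET and lower, at 27.1 and 25.5 CPM, in RPRD1B_FL_TET. The second RPRD1A_RPRD2_KD library stood apart. Its score on the first principal component of the HEK293T libraries was -51.3, against -2.35 to 11.5 for the other 15. VIM, the vimentin gene, was detected in every library (76.2 to 155 CPM in HEK293T, 326 to 414 CPM in Flp-In cells), and the fibroblast markers COL1A2 and DCN and the T cell marker CD3E were at 0 in all 24.

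RNA polymerase II starts transcription when the CDK7 kinase of TFIIH phosphorylates the repeats of its C-terminal domain. Soon after the start, DSIF and NELF hold the polymerase in a pause. P-TEFb, made of CDK9 and cyclin T, releases it by phosphorylating both factors and the domain, and 7SK RNA with HEXIM1 keeps P-TEFb inactive. The PAF1 complex, SPT6, FACT and the super elongation complex then travel with the polymerase or stimulate it, and CDK12 and CDK13 phosphorylate the domain further along the gene.

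Promoter sequences were at hand from RefSeq (GRCh38.p14) for 41 of the 49 genes. Over the 250 bases before the start, the ETS motif CCGGAAGT was present on either strand in 8 of these 41 (19.5%), against 3.64% of 27305 promoters of all genes. The SP1 motif GGGCGGG was in 27 (65.9%, against 31.4%), the CCAAT box in 12 (29.3%, against 33.0%) and TATAAA in 1 (2.44%, against 11.1%). The median GC content was 64.0%, against 58.0% for all. The letters show that these genes mostly have GC-rich promoters without a TATA box, and they say nothing of which factor binds. The stretches of 3 promoters outside annotated exons are shown because their genes recur in the results. PAF1 (chr19:39391196-39391302, minus strand) is shown because the whole stretch of 107 bases lies between the starts of PAF1 and of MED29, a Mediator subunit on the plus strand. MLLT1 (chr19:6279976-6280225, minus strand) had the lowest p-value among the siRNA comparisons. POLR2A (chr17:7484264-7484365, plus strand) encodes the largest subunit. Each reads 5′ to 3′ on the gene's strand, and capitals mark the CCAAT box on either strand, which is absent from the POLR2A stretch.
PAF1: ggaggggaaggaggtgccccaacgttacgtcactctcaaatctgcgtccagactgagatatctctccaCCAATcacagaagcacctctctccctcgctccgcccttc
MLLT1: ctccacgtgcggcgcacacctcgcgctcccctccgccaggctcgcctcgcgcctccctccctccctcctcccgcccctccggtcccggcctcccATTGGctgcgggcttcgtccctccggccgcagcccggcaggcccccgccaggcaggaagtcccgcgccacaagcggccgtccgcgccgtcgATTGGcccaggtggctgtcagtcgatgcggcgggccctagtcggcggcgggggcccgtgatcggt
POLR2A: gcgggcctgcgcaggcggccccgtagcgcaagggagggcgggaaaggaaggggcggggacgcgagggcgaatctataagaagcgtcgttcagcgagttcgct

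Levels were first set side by side over all groups. The kit reads each transcript near its 3′ end, so CPM were compared between genes without dividing by length, and a gene with several ends or with reads of a neighbour can be miscounted. At 16 of the 49 genes another annotated gene covers part of the last 500 bases, on the same strand at 2 (MNAT1 and SUPT4H1) and on the opposite strand at 15. The mean level over the 12 groups ran from 1157 CPM for POLR2E to 0.829 CPM for POLR2F. After POLR2E came both FACT subunits, SSRP1 (931 CPM) and SUPT16H (855 CPM), and POLR2A (612 CPM).

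Among the 12 subunits, POLR2E, shared by polymerases I, II and III, was the highest and POLR2F, also shared by all 3, the lowest. POLR2F had 0 to 4 reads in each HEK293T library and 2 to 12 in each Flp-In library. It was therefore the only gene of the 49 that the filter on low counts removed, and it has no test. Whether so few reads reflect little POLR2F mRNA or a miscounted 3′ end was not tested. POLR2J has near-identical copies in the genome, and its reads may be split among them. In the CDK7 complex, the assembly factor MNAT1 was highest (37.4 CPM) and the kinase CDK7 lowest (14.2 CPM). In P-TEFb, cyclin T1 (CCNT1) was highest at 36.6 CPM and the kinase CDK9 lowest at 4.85 CPM. Among CDK12, CDK13 and their cyclin CCNK, CDK12 was highest (93.5 CPM) and CDK13 lowest (21.5 CPM).

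Among DSIF, SPT6 and FACT, SSRP1 was highest and SUPT6H, which encodes the histone chaperone SPT6, lowest (97.6 CPM). In NELF, NELFB was highest (359 CPM) and NELFCD lowest (64.5 CPM). In the PAF1 complex, RTF1 was highest (170 CPM) and LEO1 lowest (15.3 CPM). In the super elongation complex, the scaffold gene AFF4 was highest (55.6 CPM) and the elongation factor ELL2 lowest (8.48 CPM). Of the 7SK proteins, HEXIM1 was highest (89.8 CPM) and MEPCE, which caps 7SK RNA, lowest (52.8 CPM). Among the other factors, the assembly factor RPAP3 was highest (68.3 CPM) and the polymerase-associated protein gene RPAP1 and the TFIIS gene TCEA1 were lower (47.2 and 41.2 CPM).

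The median range of the 12 group means over the 49 genes, as log2(CPM + 1), was 0.91, and 21 genes had a range of 1 or more. Within HEK293T cells the median range was 0.45, and 3 genes had a range of 1 or more. The range over all groups was smallest for RTF1 (0.31), POLR2H (0.37) and NELFCD (0.39). It was largest for CCNT2, the second P-TEFb cyclin (2.00), POLR2F (1.95, on at most 12 reads in a library) and PAF1 (1.82). For CCNT2 and PAF1 most of this range lay between the cell lines, as their ranges within HEK293T were 0.56 and 0.39.

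**Figure D1:**
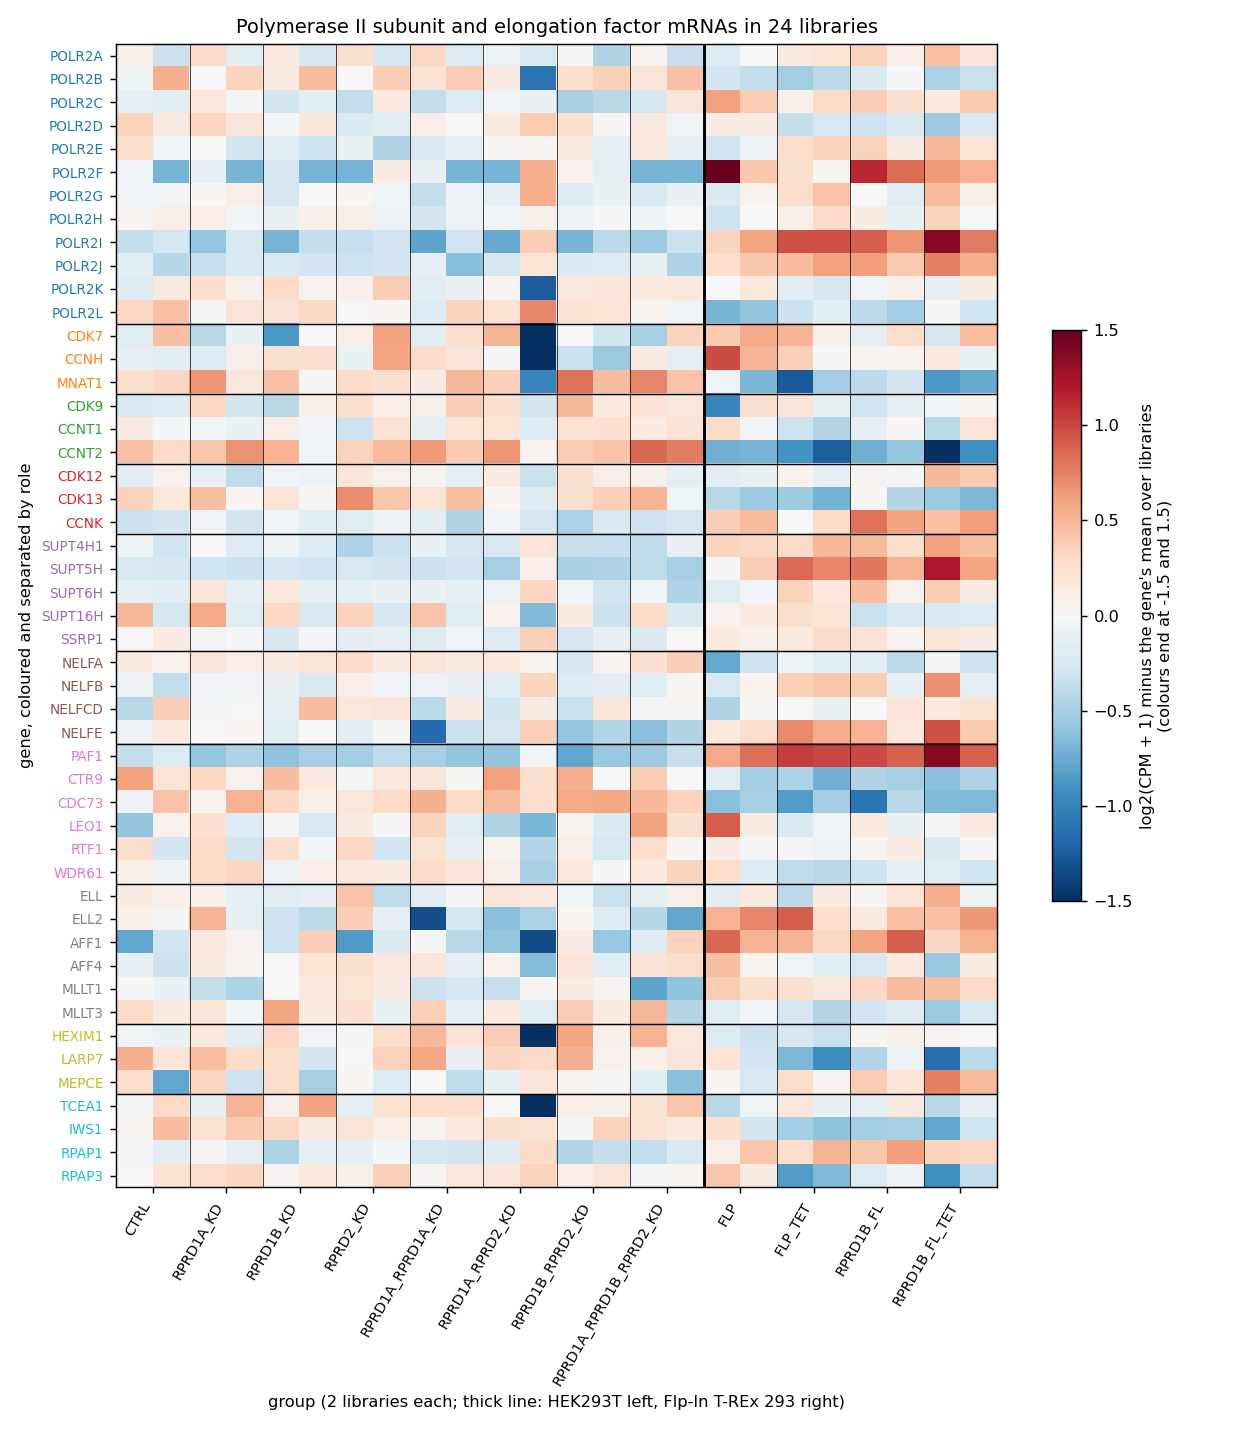
Each cell is a library's log2(CPM + 1) minus the gene's mean over the 24 libraries, with genes in rows by role and the 2 libraries of each group side by side. The colour steps fall mainly at the line between HEK293T and Flp-In cells, and the second RPRD1A_RPRD2_KD library is low for CDK7, CCNH, HEXIM1 and TCEA1.

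Values in every library follow for 5 genes, 1 for each main step. POLR2A was 639.7 and 483 CPM in CTRL, 715 and 504 in RPRD2_KD, 666 and 508 in RPRD1B_KD, 736 and 538 in RPRD1A_KD, 625 and 474 in RPRD1A_RPRD1B_RPRD2_KD, 611 and 442 in RPRD1B_RPRD2_KD, 566 and 510.3 in RPRD1A_RPRD2_KD, and 746 and 523 in RPRD1A_RPRD1A_KD. In Flp-In cells POLR2A was 528 and 606 CPM in FLP, 663 and 698 in FLP_TET, 762 and 645 in RPRD1B_FL, and 816 and 688 in RPRD1B_FL_TET. The HEK293T groups overlapped throughout, and the first library was the higher in all 8 of them. Such an order was shared by all 8 groups at 9 of the 49 genes, with the first library higher at 4 and the second at 5, among them NELFE. It was not counted over all genes, so 9 of 49 cannot be read as a trait of these genes. The share of reads without a feature also split by number, at 34.3% to 36.7% in the 8 first HEK293T libraries and 27.4% to 29.8% in the 8 second ones. Both numbers are present in every group. CDK9 was 3.90 and 4.01 CPM in CTRL, 5.88 and 5.12 in RPRD2_KD, 3.28 and 5.07 in RPRD1B_KD, 6.09 and 3.71 in RPRD1A_KD, 5.64 and 5.45 in RPRD1A_RPRD1B_RPRD2_KD, 7.01 and 5.34 in RPRD1B_RPRD2_KD, 5.81 and 3.73 in RPRD1A_RPRD2_KD, and 5.11 and 6.40 in RPRD1A_RPRD1A_KD. In Flp-In cells CDK9 was 1.91 and 5.75 CPM in FLP, 5.56 and 4.31 in FLP_TET, 3.66 and 4.20 in RPRD1B_FL, and 4.59 and 4.92 in RPRD1B_FL_TET. These values rest on 5 to 20 reads a library.

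SUPT5H, which encodes the large DSIF subunit SPT5, was 259 and 255 CPM in CTRL, 259.5 and 252 in RPRD2_KD, 255 and 249 in RPRD1B_KD, 248 and 245 in RPRD1A_KD, 234 and 216 in RPRD1A_RPRD1B_RPRD2_KD, 217 and 222 in RPRD1B_RPRD2_KD, 217 and 327 in RPRD1A_RPRD2_KD, and 244 and 249.5 in RPRD1A_RPRD1A_KD. In Flp-In cells SUPT5H was 299 and 394 CPM in FLP, 554 and 507 in FLP_TET, 529.7 and 436 in RPRD1B_FL, and 712 and 462 in RPRD1B_FL_TET. Every HEK293T library but the second of RPRD1A_RPRD2_KD lay below every Flp-In library. PAF1 was 71.4 and 79.7 CPM in CTRL, 64.2 and 70.1 in RPRD2_KD, 60.1 and 64.8 in RPRD1B_KD, 61.3 and 65.8 in RPRD1A_KD, 63.0 and 72.2 in RPRD1A_RPRD1B_RPRD2_KD, 53.0 and 61.6 in RPRD1B_RPRD2_KD, 60.8 and 89.5 in RPRD1A_RPRD2_KD, and 64.9 and 60.6 in RPRD1A_RPRD1A_KD. In Flp-In cells PAF1 was 137 and 164 CPM in FLP, 190.0 and 186 in FLP_TET, 183 and 171 in RPRD1B_FL, and 238 and 171 in RPRD1B_FL_TET. All 8 Flp-In libraries lay above all 16 HEK293T libraries. NELFE, which encodes the RNA-binding NELF subunit, was 59.1 and 69.9 CPM in CTRL, 56.3 and 63.8 in RPRD2_KD, 55.4 and 63.5 in RPRD1B_KD, 62.7 and 64.5 in RPRD1A_KD, 40.5 and 45.7 in RPRD1A_RPRD1B_RPRD2_KD, 41.7 and 46.1 in RPRD1B_RPRD2_KD, 52.9 and 81.3 in RPRD1A_RPRD2_KD, and 27.6 and 50.4 in RPRD1A_RPRD1A_KD. In Flp-In cells NELFE was 70.6 and 75.7 CPM in FLP, 104 and 93.5 in FLP_TET, 91.1 and 70.7 in RPRD1B_FL, and 123 and 83.1 in RPRD1B_FL_TET. NELFE was lowest in the HEK293T groups RPRD1A_RPRD1A_KD, RPRD1B_RPRD2_KD and RPRD1A_RPRD1B_RPRD2_KD.

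**Figure D2:**
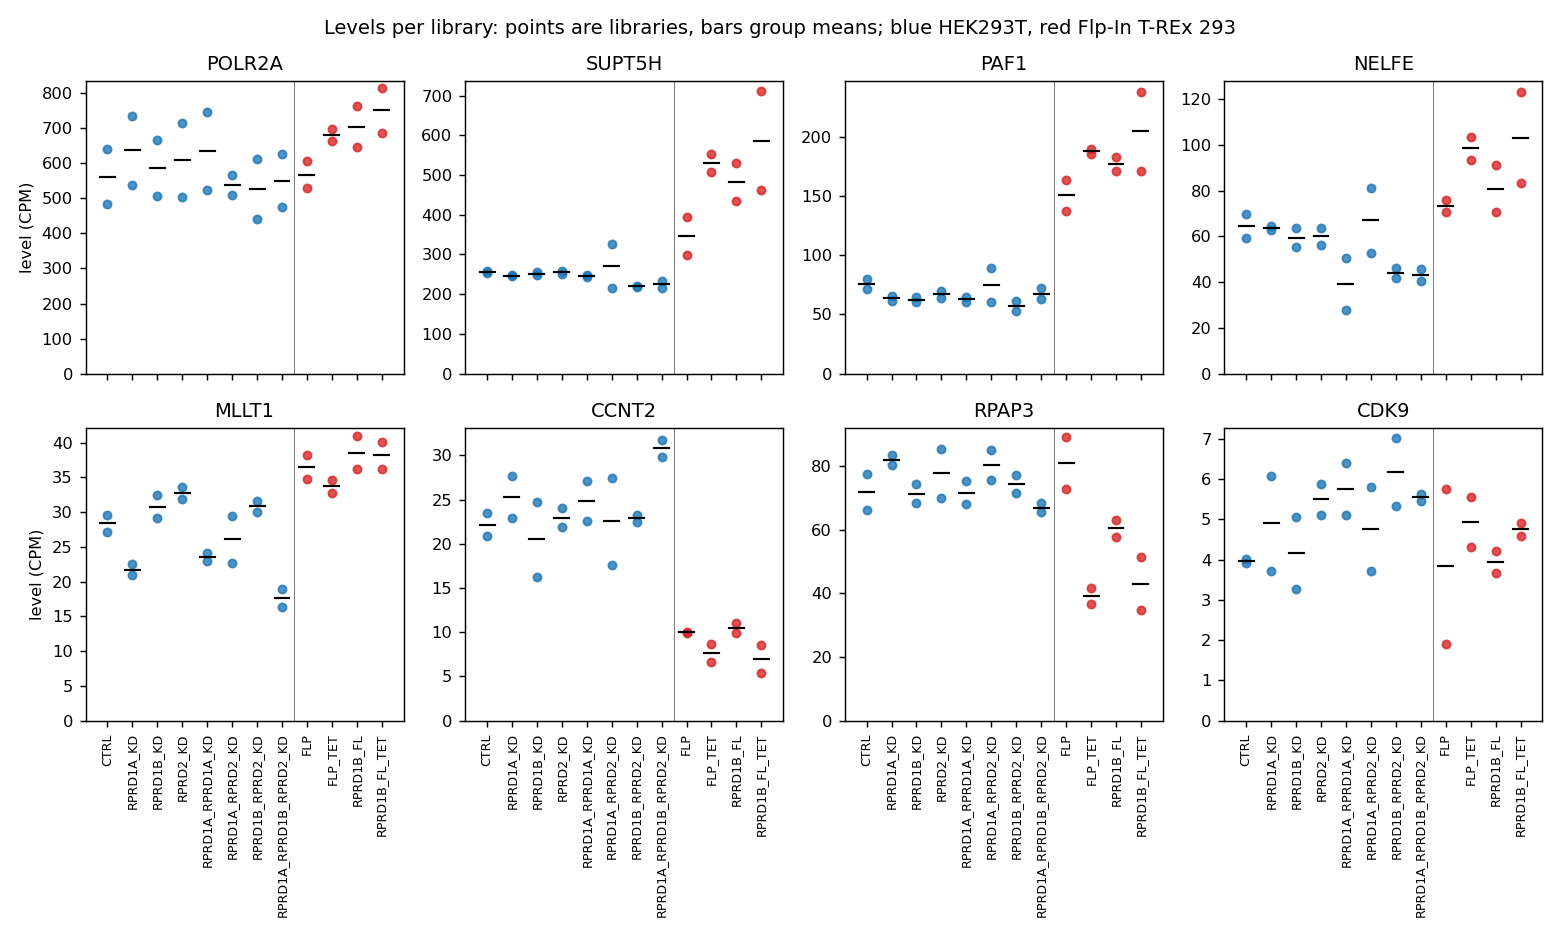
Points are libraries and bars are group means, in CPM from 0, for 8 genes in the 12 groups (blue HEK293T, red Flp-In). PAF1 is higher and CCNT2 lower in all Flp-In libraries, MLLT1 is low in most RPRD1A siRNA libraries, and RPAP3 is 34.8 to 51.4 CPM with tetracycline.

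The first question was whether lowering the RPRD proteins changed the mRNAs of the polymerase and its elongation factors. None of the 48 tested genes was called at an adjusted p under 0.05 in any of the 7 siRNA groups against CTRL, by edgeR's quasi-likelihood test with Benjamini-Hochberg adjustment over 11834 genes or by DESeq2. Few genes of any kind were: 0.0169% of all genes tested in RPRD1A_RPRD1B_RPRD2_KD, RPRD1B_RPRD2_KD and RPRD1A_RPRD1A_KD, and 0.00845% in the other 4. At an unadjusted p under 0.05 there were 3 members in RPRD1A_RPRD1B_RPRD2_KD (3.99% of all genes), 2 in RPRD1B_RPRD2_KD (2.51%), 2 in RPRD1A_RPRD2_KD (7.07%), 2 in RPRD2_KD (3.84%), 1 in RPRD1A_RPRD1A_KD (3.99%), 0 in RPRD1A_KD (2.64%) and 0 in RPRD1B_KD (3.46%). With the replicate number as a block the count stayed 0 in all 7. With the block and without the library that stood apart, 3 members were called in RPRD2_KD, 1 in RPRD1B_KD, 1 in RPRD1A_RPRD1A_KD and 1 in RPRD1A_RPRD1B_RPRD2_KD. Calls over all genes were then 167 in RPRD2_KD, 73 in RPRD1B_KD, 123 in RPRD1A_RPRD1A_KD and 129 in RPRD1A_RPRD1B_RPRD2_KD. The fit without a block had called 1 or 2 genes in each of these. The median log2 fold change of the members lay between -0.06 and 0.05 in the 7 comparisons, and that of all genes between -0.01 and 0.00. The 95% interval of the fold change lay within 2-fold either way for 36 to 43 of the 48 genes. The widest intervals belonged to genes with few reads, such as CDK7 in RPRD1B_KD, where the lower bound was -1.70, and AFF1 in RPRD1A_RPRD1B_RPRD2_KD, where the upper bound was 1.67.

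**Figure D3:**
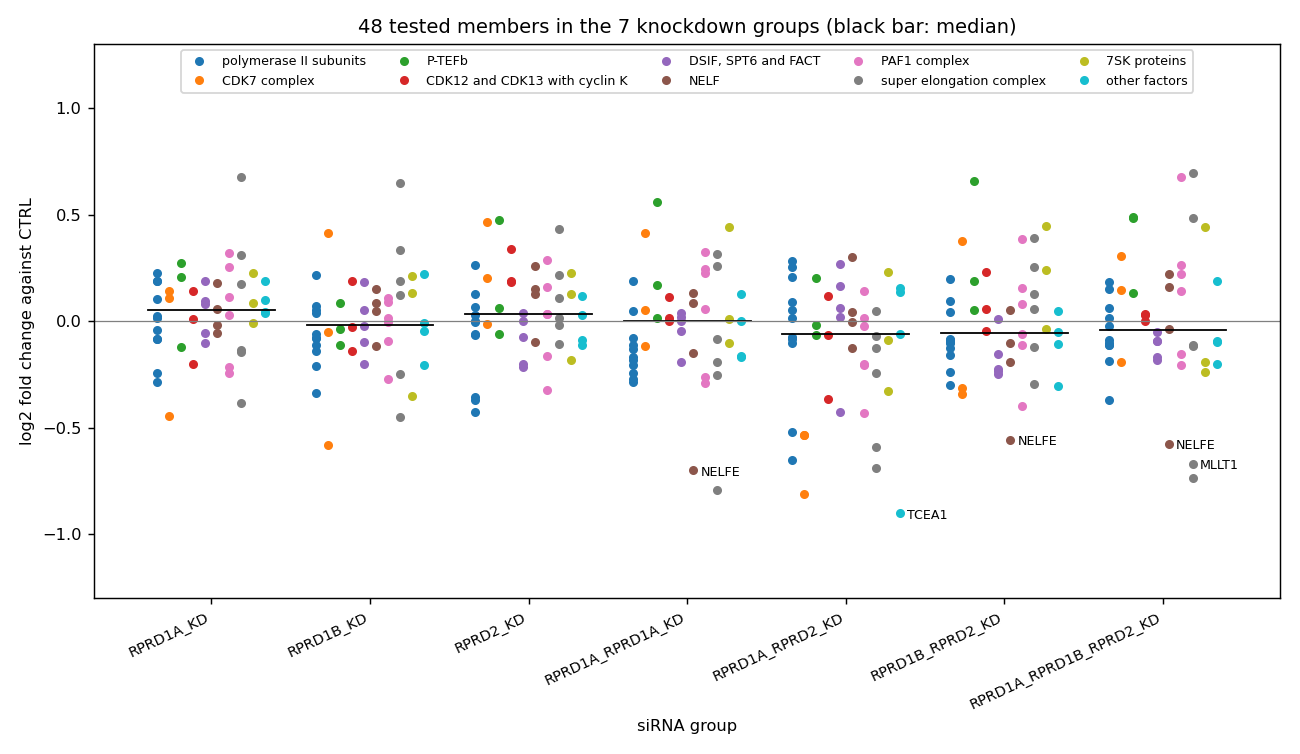
Log2 fold changes against CTRL of the 48 tested genes in each of the 7 siRNA groups, coloured by role, with the median as a black bar. The medians stay near 0, and NELFE, MLLT1 and TCEA1 are named where their value lies beyond 0.4, none of them called.

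The members with the lowest p-values in each comparison were not called by the fit without a block. For RPRD1A_KD these were MLLT1, which encodes the super elongation complex subunit ENL (-0.38, SE 0.21), and WDR61, a PAF1 complex subunit (0.32, SE 0.20). In RPRD1B_KD they were POLR2E (-0.34, SE 0.17) and the scaffold gene AFF1 (0.65, SE 0.45). In RPRD2_KD they were POLR2D, a subunit of the polymerase stalk (-0.43, SE 0.16), and AFF4 (0.43, SE 0.23). In RPRD1A_RPRD1A_KD they were NELFE (-0.70, SE 0.25) and WDR61 (0.24, SE 0.20). In RPRD1A_RPRD2_KD they were TCEA1 (-0.90, SE 0.41) and NELFB (0.30, SE 0.17). In RPRD1B_RPRD2_KD they were NELFE (-0.56, SE 0.24) and the PAF1 complex gene CDC73 (0.38, SE 0.23). In RPRD1A_RPRD1B_RPRD2_KD they were MLLT1 (-0.67, SE 0.22) and LEO1 (0.67, SE 0.31). NELFE therefore had the lowest p among members below CTRL in 2 of these comparisons and MLLT1 in 2, but all 7 share the CTRL libraries. With the block and without the library that stood apart, the calls were POLR2E in RPRD1B_KD (-0.34, adjusted p = 0.0250 by edgeR), POLR2D (-0.43, adjusted p = 0.0498), POLR2E (-0.37, adjusted p = 0.00433) and POLR2L (-0.36, adjusted p = 0.0410) in RPRD2_KD, NELFE in RPRD1A_RPRD1A_KD (-0.70, adjusted p = 0.0188) and POLR2L in RPRD1A_RPRD1B_RPRD2_KD (-0.37, adjusted p = 0.0408). Over all genes that setting called 73, 167, 123 and 129 in these comparisons, in the same order.

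The groups that contained an siRNA were also pooled against those that did not. MLLT1 gave the clearest value. It was 22.5 and 20.9 CPM in RPRD1A_KD, 23 and 24.1 in RPRD1A_RPRD1A_KD, 22.7 and 29.5 in RPRD1A_RPRD2_KD, and 16.4 and 18.9 in RPRD1A_RPRD1B_RPRD2_KD. Without RPRD1A siRNA it was 29.6 and 27.2 CPM in CTRL, 29.1 and 32.4 in RPRD1B_KD, 33.6 and 31.9 in RPRD2_KD, and 31.6 and 30.1 in RPRD1B_RPRD2_KD. Thus 7 of the 8 RPRD1A siRNA libraries, at 16.4 to 24.1 CPM, lay below all 8 others, at 27.2 to 33.6 CPM, and the exception was the library that stood apart. With that library counted, 0 of the 48 members had libraries that did not overlap (0.127% of all genes). It was set aside after values were seen, and genes with such a gap were not counted over all genes, so the gap is a description. The log2 difference was -0.48 (SE 0.10, 95% interval -0.69 to -0.26), with an adjusted p of 0.184 by edgeR's quasi-likelihood test. It was called with a GC correction and a replicate block (-0.49, adjusted p = 0.0267 by edgeR), where 29 of all genes were called. It was also called without the library that stood apart and with a replicate block (-0.52), and without the first RPRD1A_RPRD2_KD library (-0.44). Those fits leave 1 library in RPRD1A_RPRD2_KD. MLLT1 was not called by DESeq2, with the block alone, with a GC correction alone, or in the other 15 fits that left out 1 library. None of the 48 genes was called in this comparison (0.0676% of all genes, 0.0507% as lower), 1 had an unadjusted p under 0.05 (4.56%), and the lowest p among members above the others was that of CCNT2 (0.21, SE 0.13).

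None was called with RPRD1B siRNA against the others, leaving out RPRD1A_RPRD1A_KD (0.0254% of all genes), and 3 had an unadjusted p under 0.05 (6.10%). The lowest p belonged to NELFE (-0.40, SE 0.13, adjusted p = 0.716 by edgeR) and, among members above the others, to AFF1 (0.55, SE 0.24). Over single libraries, NELFE was 27.6 to 50.4 CPM in the 6 libraries of RPRD1A_RPRD1A_KD, RPRD1B_RPRD2_KD and RPRD1A_RPRD1B_RPRD2_KD, and 52.9 to 81.3 CPM in the 10 of the other 5 groups. Those 3 groups were singled out after their values were seen, so the gap is a description. None was called with RPRD2 siRNA against the others (0.0169%), and 0 had an unadjusted p under 0.05 (3.35%). The lowest p-values there were those of TCEA1 (-0.33, SE 0.19) and CDK12 (0.15, SE 0.10). Without the library that stood apart the TCEA1 value was -0.13, and without its partner -0.62. Across the 48 genes the differences with RPRD1B siRNA had a Spearman correlation of -0.43 with the GC content of the transcripts, against -0.25 across all genes, which was not tested further. In the pooled comparisons the interval lay within 2-fold for 47 or 48 of the 48 genes.

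The library that stood apart bears on the RPRD1A_RPRD2_KD values. TCEA1 was 39.6 CPM in its first library and 10.5 in its second, against 39.0 and 48.5 in CTRL. The P-TEFb inhibitor HEXIM1 was 112 and 23.4 CPM, against 83.7 and 80.6 in CTRL. The CDK7 complex followed the same split, with CDK7 at 19.6 and 3.73 CPM, cyclin H (CCNH) at 13.7 and 2.37, and MNAT1 at 44.9 and 16.9. POLR2B, the second-largest subunit, was 220 and 93.2 CPM, and the small subunit POLR2K 42.8 and 16.9. Without the first library the second is alone in its group, the spread comes from the other groups only, and a call restates that library's values. These 7 genes were then called lower than CTRL (-1.31 for POLR2K to -2.43 for CCNH), and without the second library 0 were. In the second library the level of a gene relative to the other HEK293T libraries rose with the GC content of its transcripts (Spearman 0.455 over genes), against -0.236 to 0.116 in the other 15. The part of GC content in these values was not tested.

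In Flp-In cells, the effect of tetracycline was read in the line without RPRD1B_FL. RPAP3, a co-chaperone of HSP90 that helps assemble the polymerase, was the only member called in FLP_TET against FLP (1 of 48, against 1.02% of all 11948 genes). It was 89.3 and 72.8 CPM in FLP and 36.8 and 41.8 in FLP_TET. The log2 difference was -1.04 (SE 0.20, adjusted p = 0.0440 by edgeR's quasi-likelihood test). RPAP3 was also lower with tetracycline in the line with RPRD1B_FL, at 57.8 and 63.0 CPM without and 34.8 and 51.4 with it, but this was not called (-0.52, SE 0.21, adjusted p = 0.789). The difference between both effects was 0.53 (SE 0.29) and was not called either. The RPAP3 call was lost with a replicate block (adjusted p = 0.055), with genes of a mean count of 50 or more (adjusted p = 0.0715), and without the first FLP library (adjusted p = 0.629) or without the first or the second FLP_TET library (adjusted p = 0.336 and 0.344). With a GC correction it was -0.62 (adjusted p = 0.0469).

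With RPAP3 counted, 17 of 48 members had an unadjusted p under 0.05 (9 above and 8 below 0), against 22.7% of all genes. Besides RPAP3, those under 0.01 were POLR2E (0.49, SE 0.14), SUPT5H (0.61, SE 0.18), POLR2I, a subunit near the polymerase's jaw (0.49, SE 0.17), and LARP7, which stabilises 7SK RNA (-0.78, SE 0.23), with adjusted p-values of 0.0708, 0.0708, 0.109 and 0.0708 by edgeR. LARP7 was 67.9 and 48.1 CPM in FLP and 36.5 and 30.5 in FLP_TET. SUPT5H was 299 and 394 CPM in FLP and 554 and 507 in FLP_TET. Neither gene's libraries overlapped between both groups, which held for 34 of the 48 members and 58.0% of all genes.

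The differences went with GC content, with exceptions. Across the 48 genes the log2 difference of FLP_TET against FLP had a Spearman correlation of 0.742 with the GC content of the transcripts, and of 0.544 across all genes with a value. These points share the same 4 libraries. RPAP3 had the lowest GC content of the 49 genes (36.0%) and LARP7 39.4%, while POLR2E had 62.7% and POLR2I 60.9%. MLLT1, with the highest GC content of the 49 (64.4%), was -0.11, and the elongation factor ELL (59.8%) was -0.12. In RPRD1B_FL_TET against RPRD1B_FL the correlation was 0.613 across the members and 0.436 across all genes. The correlation of a library's levels with GC content ran from -0.551 to 0.604 over the 8 Flp-In libraries. With a GC correction SUPT5H was 0.41, POLR2E 0.19, POLR2I 0.22 and LARP7 -0.45, none of them called. The part of GC content in the tetracycline values was not otherwise tested.

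**Figure D4:**
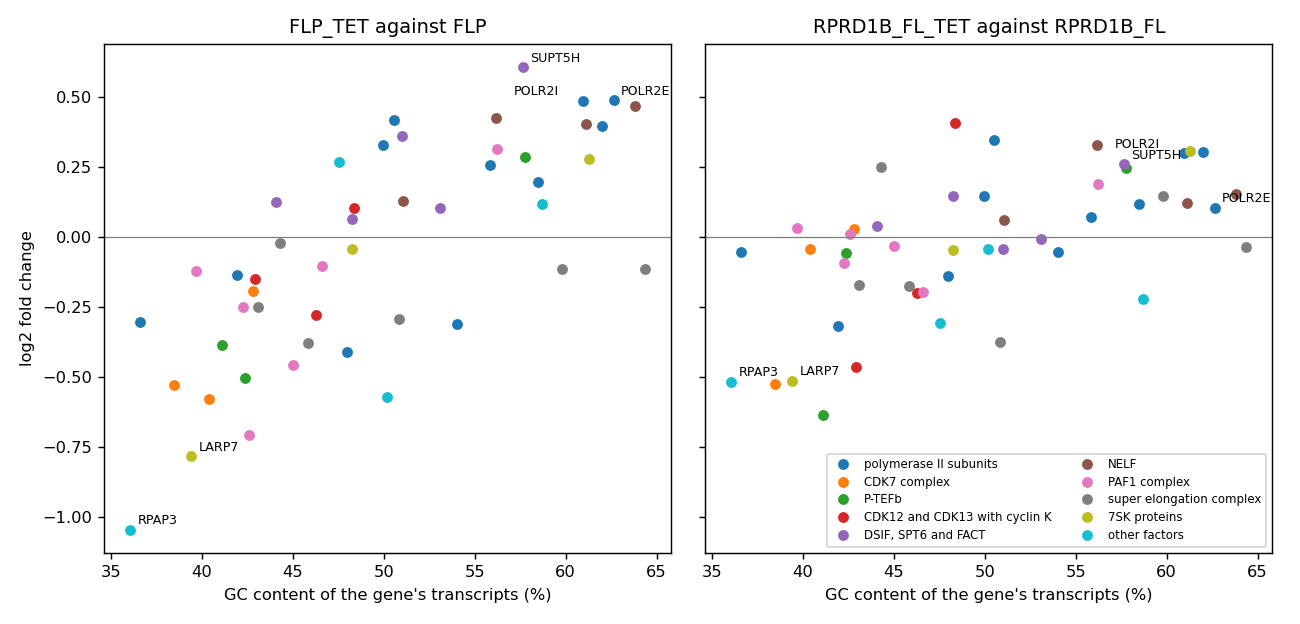
Log2 fold change with tetracycline against the GC content of the gene's transcripts, for the 48 tested genes in the line without RPRD1B_FL (left) and with it (right). Genes of low GC content such as RPAP3 and LARP7 lie below 0 and those of high GC content such as POLR2E and POLR2I above 0 in both, while MLLT1, with the highest GC content, lies at -0.11 and -0.03.

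The other tetracycline contrasts called no member. In RPRD1B_FL_TET against RPRD1B_FL, 0 of 48 were called (0% of all genes) and 3 had an unadjusted p under 0.05 (6.13%). The lowest p-values were those of CDK12 (0.41, SE 0.16) and RPAP3. In the test of the difference between the tetracycline effects of both lines, 0 of 48 were called (0%) and 0 had an unadjusted p under 0.05 (3.99%), with TCEA1 (-0.58, SE 0.30) and RPAP3 the lowest.

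RPRD1B_FL was compared with its parent with and without tetracycline. With it, 0 of 48 members were called (1.11% of all genes) and 4 had an unadjusted p under 0.05 (10.3%). SUPT16H, the large FACT subunit, had the lowest p: it was 1002 and 960 CPM in FLP_TET and 706 and 728 in RPRD1B_FL_TET (-0.47, SE 0.13, adjusted p = 0.115 by edgeR). With a GC correction the value was -0.46 and was called (adjusted p = 0.0190 by edgeR). That setting called 257 of all genes, against 133 without the correction. CDK12 was 96.4 and 84.2 CPM in FLP_TET and 130 and 122 in RPRD1B_FL_TET (0.46, SE 0.16, adjusted p = 0.221). Neither gene's libraries overlapped, as for 11 of the 48 members and 38.3% of all genes.

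Without tetracycline, in RPRD1B_FL against FLP, 0 of 48 were called (1.18% of all genes) and 10 had an unadjusted p under 0.05 (13.3%). SUPT16H was 874 and 921 CPM in FLP and 663 and 712 in RPRD1B_FL (-0.38, SE 0.13). CCNH was 28.6 and 20.4 CPM in FLP and 14.6 and 14.5 in RPRD1B_FL (-0.73, SE 0.25). POLR2E was 928 and 1074 CPM in FLP and 1434 and 1238 in RPRD1B_FL (0.42, SE 0.14). Their adjusted p-values were 0.196, 0.191 and 0.185 by edgeR. SUPT16H was thus low in RPRD1B_FL at both conditions, and the 17 tested genes within 1 Mb of it had median log2 differences of -0.33 without and -0.35 with tetracycline, none of them called. With a GC correction SUPT16H was -0.31 in RPRD1B_FL against FLP and was not called (adjusted p = 0.125 by edgeR). In this comparison too the differences went with GC content (Spearman 0.60 across the members, 0.25 across all genes), while in RPRD1B_FL_TET against FLP_TET the values were 0.165 and -0.0021. DESeq2 called 0 members in either.

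Most members differed between the cell lines. In all Flp-In groups against all HEK293T groups, 33 of 48 were called, 19 higher and 14 lower in Flp-In cells. This is close to the background: 68.8% of all 12803 genes were called, 33.6% higher and 35.1% lower. The line, the transfection and any difference in handling cannot be told apart, nor, in RNA from whole cultures, can fewer cells of a kind and less RNA per cell. The largest increases were those of PAF1 (1.43, SE 0.08), POLR2I (1.22, SE 0.11) and SUPT5H (0.96, SE 0.08). The largest decreases were those of CCNT2 (-1.46, SE 0.13), CDC73 (-1.03, SE 0.11) and MNAT1 (-0.93, SE 0.14). These 6 and the other 27 calls are by edgeR's quasi-likelihood test with adjusted p-values of 1.14e-14 (PAF1) to 0.0428 (POLR2A).

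The libraries of the lines did not overlap at 7 genes (20.5% of all genes). PAF1, the DSIF subunit SUPT4H1, POLR2J and CCNK were above, and CTR9, CDC73 and CCNT2 below. CCNT2 was 16.2 to 31.8 CPM in HEK293T (median 23.4) and 5.35 to 11.1 CPM in Flp-In cells (median 9.26). CDC73 was 27.3 to 43.7 CPM in HEK293T (median 36.5) and 13.2 to 21.4 in Flp-In cells (median 18.1). SUPT4H1 was 160 to 255 CPM in HEK293T (median 191) and 267 to 342 in Flp-In cells (median 293).

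By role, the 11 tested subunits gave 5 higher and 3 lower. POLR2I, POLR2J (0.77, SE 0.08), POLR2C (0.48, SE 0.08), POLR2E (0.25, SE 0.07) and POLR2A (0.22, SE 0.09) were higher, and POLR2L (-0.56, SE 0.08), POLR2B (-0.52, SE 0.11) and POLR2D (-0.32, SE 0.07) lower. Subunits of the same enzyme were thus called in both directions, as were all genes (33.6% higher and 35.1% lower), so the split is not particular to them. The PAF1 complex was also split, with PAF1 higher, CDC73, CTR9 (-0.75, SE 0.10) and WDR61 (-0.31, SE 0.09) lower, and LEO1 and RTF1 not called. In P-TEFb only CCNT2 was called. CDK9 was -0.19 with an interval of -0.60 to 0.22, and CCNT1 was -0.15.

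In DSIF, SPT6 and FACT, 4 of 5 were higher: SUPT5H, SUPT4H1 (0.61, SE 0.07), SUPT6H (0.25, SE 0.08) and SSRP1 (0.23, SE 0.07), and 0 were lower. In NELF, NELFE (0.70, SE 0.10) and NELFB (0.28, SE 0.09) were higher and NELFA (-0.40, SE 0.08) lower. In the CDK7 complex CCNH was higher (0.38, SE 0.16) and MNAT1 lower. Of CDK12, CDK13 and cyclin K, CCNK was higher (0.70, SE 0.08), CDK13 lower (-0.76, SE 0.11) and CDK12 not called.

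In the super elongation complex AFF1 (0.92, SE 0.15), ELL2 (0.84, SE 0.16) and MLLT1 (0.49, SE 0.08) were higher and the YEATS-domain gene MLLT3 lower (-0.43, SE 0.11). Of the 7SK proteins MEPCE was higher (0.35, SE 0.12), LARP7 lower (-0.71, SE 0.12) and HEXIM1 not called. Among the other factors RPAP1 was higher (0.56, SE 0.08), and the SPT6 partner IWS1 (-0.61, SE 0.09) and RPAP3 (-0.48, SE 0.08) were lower. In FLP against CTRL alone, RPAP3 (0.17), WDR61 (0.05) and POLR2E (-0.30) had the opposite sign, none of them called. In that narrower comparison 14 members were called, 13 of them among the 33, and 4279 of all 12803 genes. Of the largest differences named above, SUPT5H (0.43) and MNAT1 (-0.66) were not called there. PAF1 (0.99), POLR2I (0.78), CCNT2 (-1.14) and CDC73 (-0.80) were. The differences had a Spearman correlation of 0.53 with GC content across the members and 0.20 across all genes. A GC correction called 31 members and 8673 of all genes, against 8807 of all genes without it. The correction left 28 of the 33 members, lost MEPCE, POLR2A, RPAP3, SSRP1 and SUPT6H, and added CDK7 (0.51), LEO1 (0.38) and POLR2K (0.40, from -0.06).

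Position on the chromosome went with the differences between the lines. PAF1 (chr19:39385852-39391195) and SUPT5H (chr19:39436156-39476670) lie 45.0 kb apart (GRCh38, GENCODE 29). Of the 44 other tested genes within 1 Mb on either side of both, 38 were called higher and 3 lower in Flp-In cells, with a median log2 difference of 1.16, and of 1.06 after GC correction. MED29, whose start faces that of PAF1 across the stretch printed above, was 1.52 (SE 0.10). Among these neighbours 15 had a difference at least as large as PAF1 and 28 at least as large as SUPT5H. Around POLR2I (chr19:36113710-36115346), 43 of 46 neighbours were called higher and 0 lower, with a median of 1.57. On the whole of chromosome 19, 53.8% of 885 tested genes were called higher, with a median of 0.35, and 5 of the 6 members there were called higher.

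The same was seen in the other direction for several members. Around POLR2B 7 of 8 neighbours were called lower (median -0.75), around POLR2D 7 of 10 (-0.39), around CTR9 6 of 9 (-0.55), around IWS1 8 of 11 (-0.40) and around WDR61 10 of 13 (-0.53). POLR2D and IWS1 lie close together on chromosome 2, so their windows overlap and are not separate examples. Over whole chromosomes, 51.7% of tested genes were called lower on 4 (POLR2B), 42.6% on 2, 52.1% on 11 (CTR9) and 27.6% on 15 (WDR61). Over the 45 members with at least 5 tested neighbours within 1 Mb, the member's log2 difference and its neighbours' median had a Spearman correlation of 0.570, and of the 31 called, 23 had the sign of their neighbours. Neighbouring windows overlap, and members on one chromosome share neighbours. CCNT2 exceeded its neighbours (-1.46 against a median of -0.31). AFF1 went against its own, of which 7 of 9 were lower (0.92 against -1.08), and so did RPAP3, POLR2J, SUPT4H1, SSRP1, RPAP1 and, with neighbours' medians near 0, MLLT1 and MEPCE. The cause of the shared direction of neighbours was not tested.

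**Figure D5:**
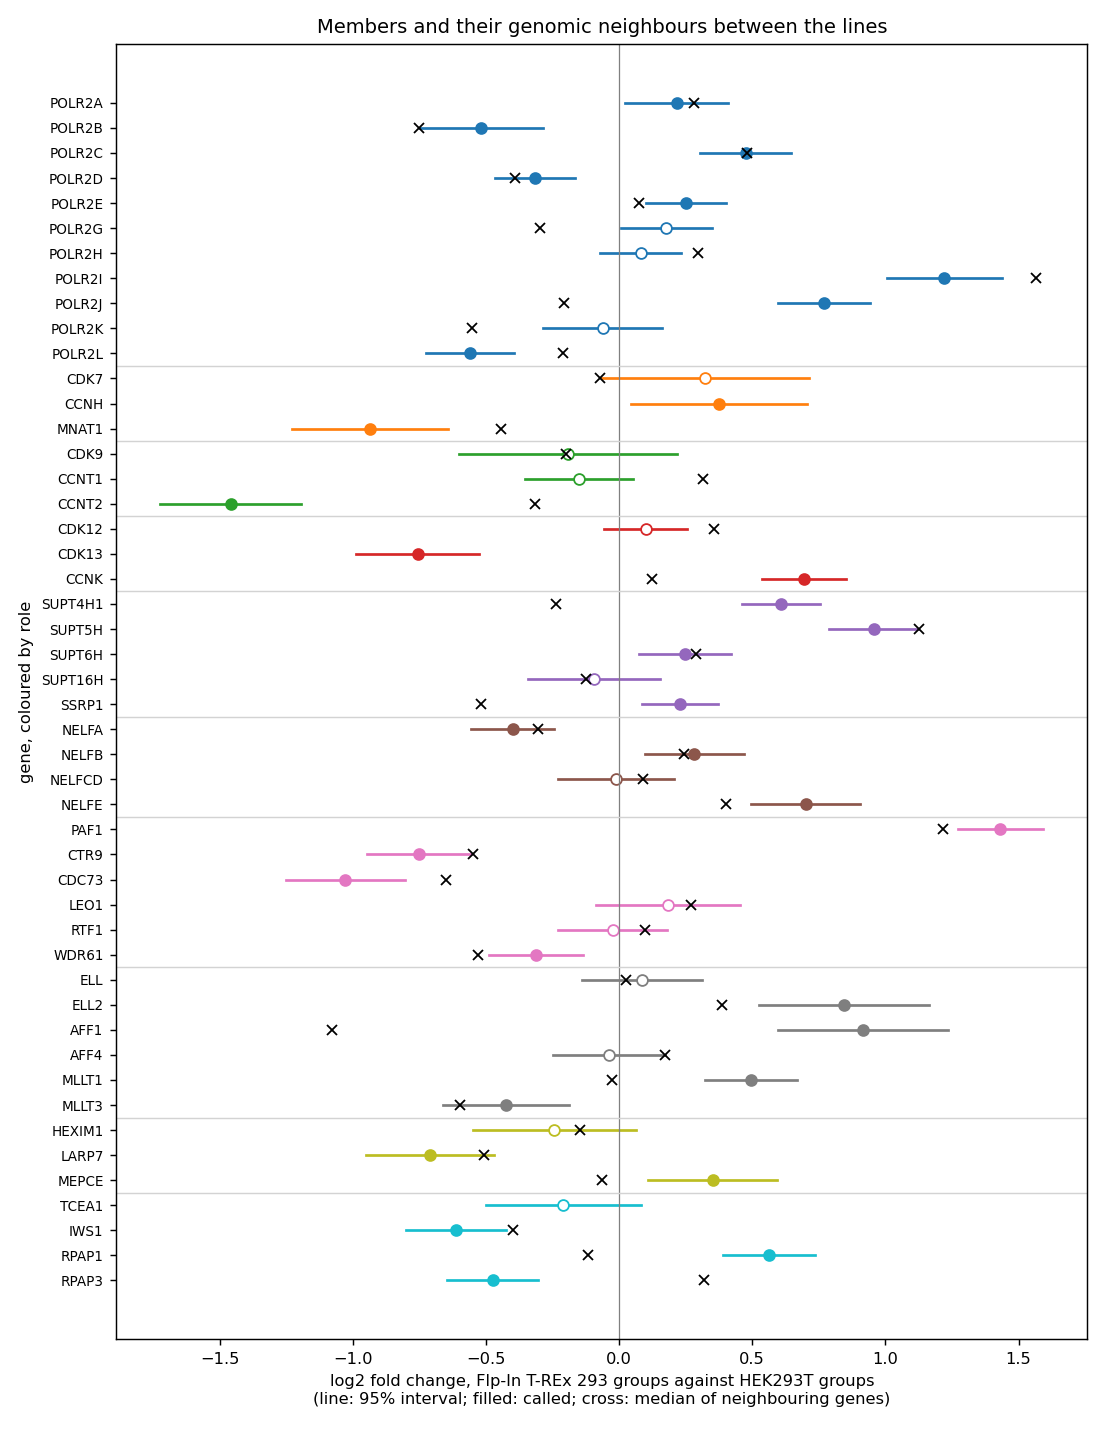
Log2 fold change of each tested gene in Flp-In against HEK293T cells, with its 95% interval, filled where called, and the median of at least 5 neighbouring genes within 1 Mb as a cross. PAF1, SUPT5H and POLR2I lie with their neighbours near or above 1, while AFF1, POLR2J and SUPT4H1 lie on the other side of 0 from theirs.

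Other genes of the transcription machinery were read from 4 lists. In the 10 siRNA comparisons 0 genes were called among the 27 general transcription factors tested, the 32 Mediator subunits, the 18 other elongation and assembly factors and the 16 subunits particular to polymerases I and III. In FLP_TET against FLP 0 of them were called. MED10, a middle-module Mediator subunit, was lower in RPRD1B_FL than in its parent without tetracycline (-1.18, SE 0.16, adjusted p = 0.000129 by edgeR) and with it (-1.08, SE 0.16, adjusted p = 0.000605). POLR1D, a subunit of polymerases I and III, was higher without tetracycline (0.68, SE 0.16, adjusted p = 0.0296 by edgeR), and the Mediator kinase CDK8 higher with it (0.99, SE 0.24, adjusted p = 0.0432). These 3 were named after their values were seen. Between the lines, where 33.6% of all genes were called higher and 35.1% lower in Flp-In cells, 8 of 27 general transcription factors were higher and 11 lower. The counts were 12 and 11 of 32 for Mediator subunits, 5 and 5 of 20 for other elongation and assembly factors, and 2 and 10 of 16 for polymerase I and III subunits. The extremes were AFF2 (5.90, SE 0.41), a relative of AFF1, and the Mediator gene MED17 (-1.57, SE 0.20).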

How the data were processed

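Counts per gene were analysed for 24 libraries. Per the labels, RNA was taken with TRIzol and libraries made with a QuantSeq 3′ REV kit. The submitters' processing notes name FastQC, STAR, HTSeq, DESeq2 and GRCh38. The strand setting is not given in the sources used here. The authors deposited raw read counts for 58138 gene names. Closing rows (15.3% to 36.7% of reads without a feature, 1.30% to 1.83% ambiguous, 9.56% to 14.6% without a unique position) were kept out of library sizes and tests.

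Fits used edgeR 4.0.16 in R 4.3.3 (DESeq2 1.42.0 as an alternative), with a term per group: 1 fit for each line, and 1 of all 24 libraries for the lines. Genes were kept by filterByExpr (minimum count 10, total 15), scaled by TMM and tested by quasi-likelihood, adjusted by Benjamini-Hochberg over all genes, and called at an adjusted p under 0.05. Each standard error is the absolute log2 difference divided by root F. GC content is that of GENCODE 29 transcripts. On simulated counts, 46% of 2-fold and 96% of 4-fold changes were found for RPRD1A_KD against CTRL, and 74% and 98% for FLP_TET against FLP. The simulation changed many genes at once, left out genes with few reads, and held no replicate-number effect and no library that stood apart. It called 150 genes for RPRD1A_KD, against 1 in the data. These shares may therefore be too high for a few changed members. Replicates differed by more than counting noise. Intervals cover the spread between samples.

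The members and lists were chosen with earlier results of these data known. Named by rule were the highest and lowest member of each role, every called member, the lowest p in each direction, every unadjusted p under 0.01, the 3 largest and 3 smallest ranges, and 5 genes in every sample. Neighbour windows and the MLLT1 and NELFE library ranges were added after values were seen.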

Additional observations from a re-analysis of the deposited data

How the results depend on the processing

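The labels do not say what a replicate number stands for, and not every pair of groups met the correlation set for pairing (over 0.1), so the replicate block is an alternative here. Deviations of same-numbered HEK293T libraries from their group means had a mean correlation of 0.325 (-0.012 to 0.513, 26 of 28 group pairs over 0.1; without RPRD1A_RPRD2_KD 0.280 to 0.513, 21 of 21 over 0.1), and of Flp-In libraries -0.016 (-0.344 to 0.452). The block alone changed the count of members called only in FLP_TET against FLP, to 0 (1 of all genes), and gave 34 between the lines (8994 of all genes). With the block and the library that stands apart (RPRD1A_RPRD2_KD, second) omitted, 1 member was called in RPRD1B_KD (POLR2E, -0.34), 3 in RPRD2_KD (POLR2D, -0.43, POLR2E, -0.37, and POLR2L, -0.36), 1 in RPRD1A_RPRD1A_KD (NELFE, -0.70), 1 in RPRD1A_RPRD1B_RPRD2_KD (POLR2L, -0.37), 1 with RPRD1A siRNA pooled (MLLT1) and 1 with RPRD2 siRNA pooled (SUPT16H, -0.17), and TCEA1 in RPRD1A_RPRD2_KD changed sign to 0.0223. Over all genes the setting without that library called 73 in RPRD1B_KD, 167 in RPRD2_KD, 123 in RPRD1A_RPRD1A_KD and 129 in RPRD1A_RPRD1B_RPRD2_KD. GC correction with the block called 1 member with RPRD1A siRNA pooled (29 of all genes). GC correction called 1 member in RPRD1B_FL_TET against FLP_TET without the block (257 of all genes) and with it (253). In FLP_TET against FLP, where the reported fit called 1 member and 122 of all genes, DESeq2 called 3 members (250 of all genes). A fit of only the groups compared called 7 (1273), all genes with a read 5 (762), and genes averaging at least 50 reads 0 (0). FLP against CTRL only gave 14 calls (4279 over all genes) and the sign changes RPAP3 0.165, WDR61 0.0497 and POLR2E -0.30. Leaving out each library in turn gave 0 to 7 calls in RPRD1A_RPRD2_KD against CTRL, 0 to 1 with RPRD1A siRNA, 0 to 2 with RPRD1B siRNA, 0 to 2 with RPRD2 siRNA, 0 to 1 in RPRD1B_FL against FLP, 0 to 7 in FLP_TET against FLP and 31 to 37 between the lines. Every call among the siRNA comparisons from leaving out a library came without the first RPRD1A_RPRD2_KD library, which leaves the library that stands apart alone in its group. The cause was not tested. Over all genes, calls moved by over 1.5 times under some alternatives: in FLP_TET against FLP from 122 to between 0 and 1273, in RPRD1B_FL against FLP from 141 to up to 323, in RPRD1B_FL_TET against FLP_TET from 133 to between 79 and 257, between the lines from 8807 to as few as 4279, and in the siRNA comparisons from 1 to 8 to as many as 167. At this depth CDK9, AFF1, ELL2, CDK7 and CCNH have wide intervals, and POLR2F has none.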
